A study of Mus musculus with 12 samples.

Results

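The pyruvate dehydrogenase group described here comprised 10 genes, chosen by symbol from the 39017 genes in the deposited count table, and all 10 passed the filter on low counts that left 14953 genes to be tested. *Pdha1*, *Pdhb*, *Dlat* and *Pdhx* encode subunits of the pyruvate dehydrogenase complex, *Pdk1* to *Pdk4* its kinases, and *Pdp1* and *Pdp2* its phosphatases. Their messenger RNA was counted in whole adrenals, trimmed of fat, from females at 10 to 11 weeks of age, 6 of them controls (Ctrl) and 6 βCat-GOF, with 1 library per mouse, on a mixed sv129 and C57Bl/6 background. Ctrl mice carried ASCre/+, and βCat-GOF mice were bigenic for ASCre/+ and Ctnnb1fl(ex3)/+. In both groups Cre is therefore made from the aldosterone synthase (*Cyp11b2*) locus, which is active in cells of the zona glomerulosa (zG), and in βCat-GOF mice it removes exon 3 of 1 *Ctnnb1* allele, which stabilizes β-catenin. The study used this comparison to look for transcripts linked to the effect of stabilized β-catenin on zG morphology. The group of genes was put together when the difference between the genotypes was already known, so the values of its 10 genes by genotype are given as a description and without a p-value.

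The pyruvate dehydrogenase complex sits in the mitochondrial matrix and converts pyruvate from glycolysis to acetyl-CoA for the tricarboxylic acid cycle. Its kinases phosphorylate the E1α subunit and switch the complex off, and its phosphatases reverse this. The kinase isoforms differ in what induces them: *PDK1* is a known target of hypoxia-inducible factors, and *PDK4* is induced in fasting through PPARs, FOXO factors and glucocorticoids. The adrenal cortex uses mitochondria for the first and last steps of corticosteroid synthesis.

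Each library held between 13484675 and 25625494 counted reads, and the ranges of the 2 groups overlapped. The labels of 3 mice repeat the stem of another mouse's label and could mark a second sample of 1 animal, in which case p-values would measure a spread that is partly technical. Ctrl labels start with the same number, while a different one starts 5 of the 6 βCat-GOF labels. Litter or handling, if it goes with that number, cannot be told apart from genotype. Counts of *Ctnnb1* were between 20273 and 22606 in Ctrl and between 19229 and 22432 in βCat-GOF mice, but the loss of 1 exon is not visible in counts summed over a gene. *Cyp11b2*, the zG enzyme of aldosterone synthesis, was present in every library, at between 2056 and 9254 normalized counts. Normalized counts are counts divided by DESeq2's size factors.

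*Pdk1* and *Pdp2* were the genes of the group whose levels did not overlap between the genotypes, and the 250 bases before their start sites are shown for that reason only. Both are from RefSeq on GRCm38.p6, plus strand, at chr2:71872974-71873223 for *Pdk1* and chr8:104591222-104591471 for *Pdp2*. Capitals mark ACGTG or GCGTG on either strand, the core letters of the hypoxia response element.
Pdk1: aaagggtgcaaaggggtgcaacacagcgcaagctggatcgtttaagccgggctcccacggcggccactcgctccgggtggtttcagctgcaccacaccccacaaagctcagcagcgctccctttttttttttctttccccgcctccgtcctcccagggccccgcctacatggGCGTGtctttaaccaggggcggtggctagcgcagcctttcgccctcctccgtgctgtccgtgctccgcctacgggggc
Pdp2: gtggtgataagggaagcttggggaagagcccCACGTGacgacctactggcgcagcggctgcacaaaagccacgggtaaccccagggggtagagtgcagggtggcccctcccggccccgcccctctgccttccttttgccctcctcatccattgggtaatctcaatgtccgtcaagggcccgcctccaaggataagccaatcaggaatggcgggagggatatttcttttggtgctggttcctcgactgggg
The *Pdk1* window held 1 such match, and the *Pdp2* window held a palindrome that matched once on each strand. These letters were present in 8 of the 9 genes with a window in the table (*Pdp1* has none) and in 38.6% of all 32851 windows of the same length. The letters CTTTGA on either strand, the core of the motif bound by the TCF and LEF partners of β-catenin, were in none of the 9 windows and in 13.8% of all windows. GC content was 64% in the *Pdk1* window and 60.8% in the *Pdp2* window, against a median of 52.4% over all windows. It lay between 58.8% (*Pdk4*) and 68.4% (*Pdhx*) over the 9 windows of the group. *Pdk1* and *Pdk2* have 2 windows each among all windows, and for these genes only the window nearest the start of the gene was searched. A match describes letters only, and the windows do not cover more distant elements.

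Of the kinases, *Pdk1* was lower in every βCat-GOF mouse than in any Ctrl mouse, while the other 3 kinase genes overlapped. *Pdk1* encodes pyruvate dehydrogenase kinase 1 and lies on the plus strand of chromosome 2, from 71873224 to 71903858 in GRCm38 (mm10), under the identifier ENSMUSG00000006494. Its normalized counts were 1594, 1480, 1473, 1724, 1426 and 1615 in Ctrl mice 1 to 6. They were 829, 818, 923, 767, 1023 and 749 in βCat-GOF mice 1 to 6. The lowest Ctrl mouse thus lay well above the highest βCat-GOF mouse, and both groups were narrow. The mean was 1552 ± 112 in Ctrl and 852 ± 104 in βCat-GOF mice (SD, n = 6 each). In edgeR's fit over all genes the log2 fold change was -0.87 (standard error 0.087), or 45.4% lower. *Pdk1* ranked 44th by size among the 130 genes called lower.

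**Figure D1:**
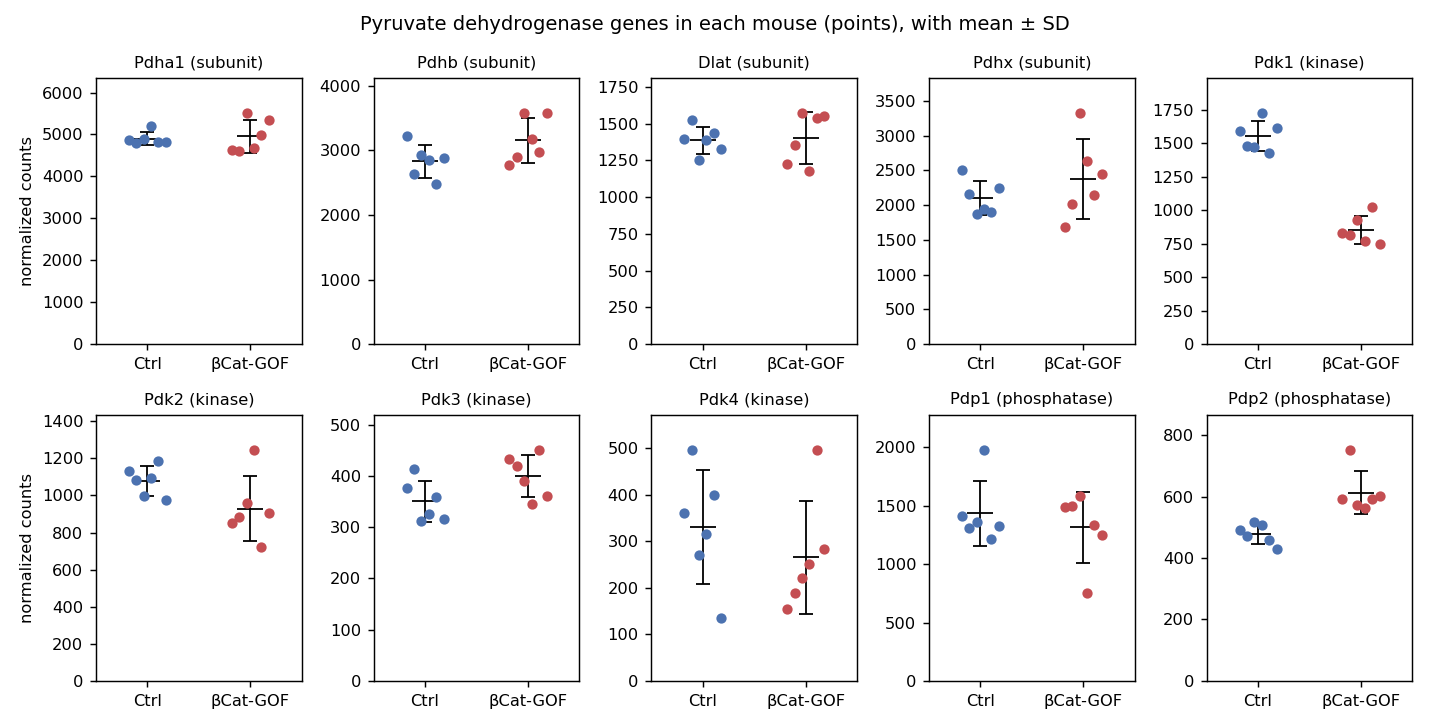
Normalized counts (y axes, from 0) of the 10 genes in each Ctrl and βCat-GOF mouse (points), with mean ± SD in black. *Pdk1* falls from between 1426 and 1724 to between 749 and 1023, *Pdp2* rises from between 429 and 518 to between 563 and 752, and the points of the other 8 genes overlap.

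*Pdk2*, the most widely expressed kinase isoform, had a lowest, median and highest value of 978, 1087 and 1188 normalized counts in Ctrl and of 721, 896 and 1246 in βCat-GOF mice. Its log2 fold change was -0.23 (standard error 0.113), and 1 mouse, βCat-GOF mouse 4, held the highest value of all 12. *Pdk3* had 312, 341 and 414 in Ctrl and 346, 405 and 451 in βCat-GOF mice, a log2 fold change of 0.19 (standard error 0.108). The groups overlapped for both genes. *Pdk4*, the kinase known for its response to fasting, was the most variable gene of the group, with 135, 339 and 496 in Ctrl and 155, 236 and 497 in βCat-GOF mice. The coefficient of variation of *Pdk4* was 37.1% in Ctrl and 45.8% in βCat-GOF mice, against 7.2% and 12.2% for *Pdk1*. Its log2 fold change of -0.33 had a standard error of 0.301, and was -0.59 without βCat-GOF mouse 5, the highest of that group, and -0.17 without Ctrl mouse 2, the highest Ctrl mouse. In GRCm38, *Pdk2* lies on chromosome 11 from 95026258 to 95041354, *Pdk3* on chromosome X from 93764607 to 93832201 and *Pdk4* on chromosome 6 from 5483351 to 5496309, all on the minus strand.

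Among the phosphatases, *Pdp2* was higher in every βCat-GOF mouse and *Pdp1* was not. *Pdp2*, on chromosome 8 from 104591451 to 104599026, had 429, 480 and 518 normalized counts (lowest, median and highest) in Ctrl and 563, 593 and 752 in βCat-GOF mice. The groups were adjacent but did not overlap, and βCat-GOF mouse 2 lay apart from the other 5. The mean was 479 ± 33.1 in Ctrl and 613 ± 69.6 in βCat-GOF mice (SD, n = 6 each). Its log2 fold change of 0.35 (standard error 0.091), or 27.3% higher, is below the fold of 1.4 that the study used as a cut-off. *Pdp1*, the phosphatase isoform that calcium activates, lies on chromosome 4 from 11958184 to 11966452. It had 1214, 1345 and 1980 in Ctrl and 750, 1415 and 1586 in βCat-GOF mice, a log2 fold change of -0.13 (standard error 0.165). One mouse set each extreme, Ctrl mouse 4 at the top and βCat-GOF mouse 4 at the bottom, and without either the log2 fold change was -0.01.

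The subunits of the complex overlapped between the genotypes throughout. Their genes lie on chromosome X from 160122209 to 160138413 (*Pdha1*), chromosome 14 from 8165996 to 8173025 (*Pdhb*), chromosome 9 from 50634633 to 50659780 (*Dlat*) and chromosome 2 from 103021075 to 103073513 (*Pdhx*), at some distance from *Pdk1* on the same chromosome. *Pdha1*, which encodes the E1α subunit that the kinases phosphorylate, had 4809, 4849 and 5204 normalized counts (lowest, median and highest) in Ctrl and 4605, 4831 and 5510 in βCat-GOF mice, a log2 fold change of 0.01 (standard error 0.07). *Pdhb*, for E1β, had 2480, 2866 and 3221 in Ctrl and 2768, 3070 and 3575 in βCat-GOF mice, a log2 fold change of 0.15 (standard error 0.084). *Dlat*, for the E2 acetyltransferase, had 1251, 1391 and 1525 in Ctrl and 1175, 1447 and 1572 in βCat-GOF mice, a log2 fold change of 0.01 (standard error 0.086). In all 3 genes the means lay within the spread between mice. *Pdhx*, for the E3-binding protein, had 1876, 2049 and 2501 in Ctrl and 1684, 2292 and 3322 in βCat-GOF mice, a log2 fold change of 0.16 (standard error 0.136), which was 0.04 without βCat-GOF mouse 3, the highest. The coefficient of variation of *Pdhx* was 11.7% in Ctrl and 24.1% in βCat-GOF mice, the widest of the subunits in both groups. *Map3k15*, on the opposite strand, covers 16.1% of the exon length of *Pdha1*, and strand use in the counting is not given in the sources used here, so some reads of *Pdha1* are uncertain.

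A gene was called when it passed the 3 cut-offs of the study, which are a base mean over 100, a change by more than 1.4 times and an adjusted p (over all genes tested) under 0.05. Of the 10 genes none was called higher and 1, *Pdk1*, was called lower, while of all 14953 genes tested 2.35% were called, 1.48% higher and 0.869% lower. With no limit on fold or base mean, 2 of the 10 genes (*Pdk1* and *Pdp2*) and 3.68% of all genes had an adjusted p under 0.05, and *Pdp2* stayed under it in only 2 of the 12 fits that left out 1 mouse and neither with no filter on low counts nor without the 3 mice whose labels repeat a stem. Ranges did not overlap in 2 of the 10 genes and in 2.78% of all genes, with βCat-GOF above in 1.61% and below in 1.16%. Since the choice of the genes used this contrast, nothing is read from these counts. The median log2 fold change was 0.08 over the 4 subunits, -0.28 over the 4 kinases, 0.11 over both phosphatases and 0.01 over the 10 genes, against 0.0001 over all genes tested. The log2 fold change of *Pdk1* lay between -0.92 and -0.84 when any 1 of the 12 mice was left out, was -0.88 (standard error 0.111) without the 3 mice whose labels repeat a stem, and was -0.92 (standard error 0.083) without the βCat-GOF mouse of another label number. That of *Pdp2* lay between 0.29 and 0.38 with each mouse left out.

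In a whole gland a lower count can come from fewer cells of a type or from less RNA per cell, and these cannot be told apart. Of 8 zG markers 4 were called higher and none lower (*Agtr1b*, *Agtr1a*, *Vsnl1* and *Dab2*), with summed normalized counts between 26323 and 40658 in Ctrl and between 36427 and 65436 in βCat-GOF mice. The log2 fold change was positive for 7 of the 8 and negative for *Cyp11b2*, at -0.18 (standard error 0.36). That of *Hsd3b6* was 0.15 with a standard error of 0.58, so the zG markers did not rise as 1 set. Of 6 macrophage markers 1 was called, *Adgre1*, and it was lower, with sums between 7766 and 15875 in Ctrl and between 6220 and 10680 in βCat-GOF mice. Of 6 markers of the zona fasciculata (zF), the layer below the zG, 1 was called, *Akr1b7*, and it was higher, with sums between 590038 and 706579 in Ctrl and between 442624 and 1146250 in βCat-GOF mice. Sums of 6 medulla markers lay between 78359 and 238975 in Ctrl and between 99186 and 190892 in βCat-GOF mice, and those of 9 adipocyte markers between 3491 and 18689 and between 4564 and 15802. None of the medulla, adipocyte, X-zone, endothelial, capsule and stroma or erythroid markers was called by edgeR, while DESeq2 called 1 of them, the X-zone marker *Thrb* (lower), together with 6 zG markers (higher) and 2 macrophage markers (lower). Skeletal muscle, a tissue rich in *Pdk4*, had 6 markers that summed to between 13 and 46 normalized counts in Ctrl and between 26 and 46 in βCat-GOF mice, and *Mylpf* was the 1 of them above the filter. With the genotype means removed, *Pdk1* and the zG score (the mean log2 CPM of the markers) had Pearson's r = -0.01 (permutation p = 0.99) and Spearman's rho = 0.08 (permutation p = 0.83) over 12 mice, and r = -0.24 without the 2 mice farthest from the median. For *Pdk4* and the adipocyte score these were r = 0.37 (permutation p = 0.32) and rho = 0.37 (permutation p = 0.25), and r = 0.03 without 2 mice. What part the zG, zF and macrophage markers have in the genotype difference of any of the 10 genes was not tested.

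Within 1 Mb on either side of *Pdk1*, 11 other genes were tested, with log2 fold changes between -0.52 (*Metap1d*) and 0.61 (*Itga6*) and a median of 0.03. Of these 1, *Metap1d*, was called lower, against 0.869% of all genes tested. Within the same distance of *Pdp2*, 35 other genes were tested and none was called. Their log2 fold changes lay between -0.92 (*Agrp*) and 1.16 (*Bean1*), with a median of -0.03. Both windows were examined after the values of *Pdk1* and *Pdp2* were seen.

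Levels can be compared between genes only per length, here as CPM (a gene's count scaled to a library of fixed size) per kilobase of exon. In Ctrl adrenals 3 of the 4 subunit genes led the order, and *Dlat* stood 6th. *Pdha1* had 65.7 ± 2.11 CPM per kilobase, *Pdhb* 36.7 ± 3.11 and *Pdhx* 26.8 ± 3.03 (SD, n = 6). *Pdk2* followed with 17.1 ± 1.29, *Pdp1* with 15.9 ± 3.08 and *Dlat* with 14.2 ± 1.02. *Pdk1* had 9.98 ± 0.712, *Pdk3* 6.84 ± 0.807, *Pdk4* 4.71 ± 1.76 and *Pdp2* 4.21 ± 0.286. In 6 of the 9 pairs of neighbours all 6 Ctrl mice had the same order (exact permutation test of the paired log2 differences, two-sided, p = 0.0312 each, the smallest that 6 mice allow; adjusted over 9 pairs 0.0469). The neighbours that did not differ beyond the spread between mice were *Pdk2* and *Pdp1* (same order in 5 of 6 mice, exact permutation test, adjusted p = 0.422), *Pdp1* and *Dlat* (4 of 6, exact, adjusted p = 0.281) and *Pdk4* and *Pdp2* (4 of 6, exact, adjusted p = 0.781). The log2 difference between *Pdha1* and *Pdhb*, which encode the subunits of one heterotetramer, was 0.84 ± 0.13. Such differences also depend on the annotated exon length, and with the longest transcript in its place *Dlat* and *Pdp1* changed places and 7 of 9 pairs passed.

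**Figure D2:**
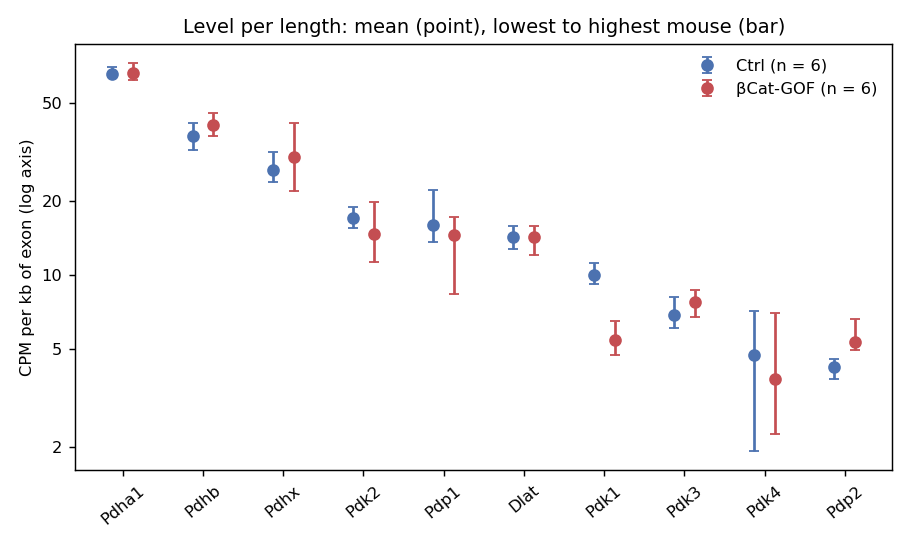
Level of each gene in CPM per kilobase of exon (y axis, log scale) in Ctrl and βCat-GOF mice, with the mean as a point and a bar from the lowest to the highest of 6 mice. *Pdha1* is highest at 65.7 in Ctrl, and *Pdk1*, at 9.98 in Ctrl and 5.45 in βCat-GOF mice, is one of 2 genes whose bars do not overlap.

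In βCat-GOF adrenals *Pdk1* had 5.45 ± 0.644 CPM per kilobase and *Pdk3* 7.78 ± 0.855 (SD, n = 6), so *Pdk1* stood below *Pdk3*, in 6 of 6 mice. The 6 genes above them were in the same order of means as in Ctrl, and *Pdp2* (5.36 ± 0.626) stood above *Pdk4* (3.76 ± 1.70) in 5 of 6 mice. *Pdha1* and *Pdhb*, *Pdhb* and *Pdhx*, and *Pdhx* and *Pdk2* had 1 order in all 6 βCat-GOF mice. So did *Dlat* and *Pdk3*, and *Pdk3* and *Pdk1*. Each of these pairs had p = 0.0312 (exact permutation test), as did the pairs that passed in Ctrl. After adjustment no pair in the βCat-GOF order passed (smallest adjusted p = 0.0563). The adjusted p depends on how many pairs reach the smallest p, so passing cannot be compared between the genotypes. As a share of the 4 summed kinase genes per length, *Pdk1* made up between 22.6% and 30.6% in Ctrl and between 14.1% and 19.4% in βCat-GOF mice, without overlap. *Pdk2* held the largest share in every mouse, between 40.9% and 46.2% in Ctrl and between 33.6% and 56.3% in βCat-GOF mice. The share of *Pdk3* was 17.7% ± 1.09 in Ctrl and 24.8% ± 3.32 in βCat-GOF mice, and the ranges met only at βCat-GOF mouse 4, with 19.3%. *Pdk4* made up between 5.69% and 16.9% in Ctrl and between 7.51% and 20.9% in βCat-GOF mice. Shares of one sum are tied to each other, so a lower *Pdk1* by itself raises the shares of the rest.

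**Figure D3:**
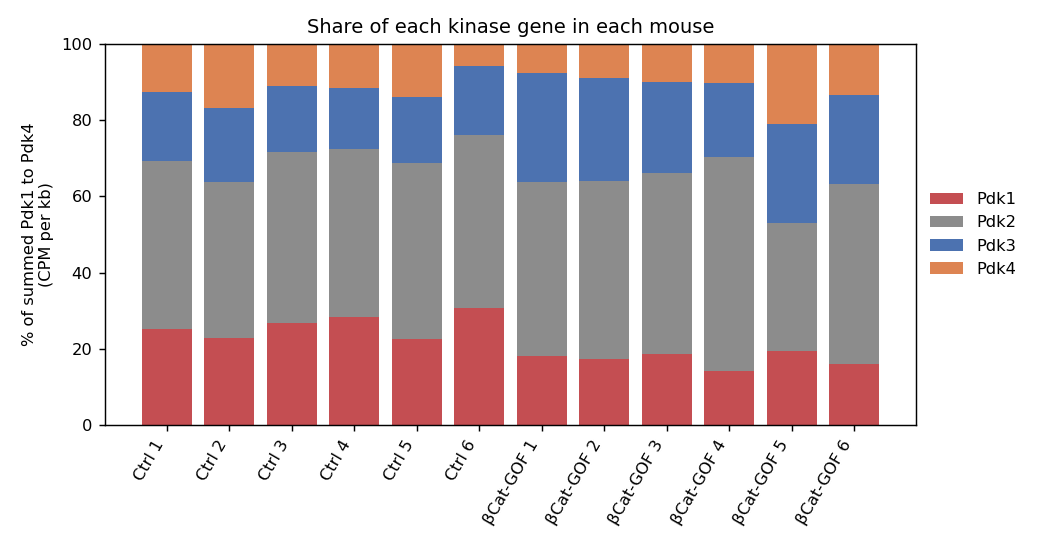
Share of each kinase gene in the summed CPM per kilobase of *Pdk1* to *Pdk4* (y axis, percent) for each mouse (bars). The *Pdk1* part is between 22.6% and 30.6% in the 6 Ctrl mice and between 14.1% and 19.4% in the 6 βCat-GOF mice, and the *Pdk4* part is largest in βCat-GOF mouse 5 at 20.9%.

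Summed over the 4 genes, the kinases had 38.6 ± 3.33 CPM per kilobase in Ctrl and 31.6 ± 2.17 (SD) in 6 βCat-GOF mice, and the ranges overlapped (33.9 to 42.1 and 29.6 to 35.0). The summed phosphatases had 20.1 ± 3.23 and 19.9 ± 3.65, and the 4 summed subunits 143 ± 5.39 and 151 ± 15. The ratio of kinases to phosphatases was 1.95 ± 0.312 in Ctrl and 1.66 ± 0.5 in βCat-GOF mice, with overlap. The ratio of subunits to kinases was between 3.34 and 4.24 in Ctrl and between 4.26 and 5.6 in βCat-GOF mice, so the groups were adjacent without overlapping. *Pdk1* is part of the kinase sum, so this ratio is not separate from the lower *Pdk1*, and the summed subunits overlapped between the groups. Whether the ratio differs apart from *Pdk1* was not tested. These ratios are of RNA and hold no measure of protein or of phosphorylation.

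To ask how the genes vary between mice apart from the genotype, the mean of each genotype was subtracted from log2 CPM and the 45 pairs of genes were correlated over the 12 mice. None of the 45 pairs passed (permutation test with mice shuffled within genotype, adjusted over 45 pairs), and 1 had an unadjusted p of Pearson's r under 0.05. That pair was *Pdhb* and *Pdhx*, with Pearson's r = 0.73 (permutation p = 0.0094, adjusted 0.43) and Spearman's rho = 0.69 (permutation p = 0.021, adjusted 0.47). Its r was 0.57 in Ctrl, 0.84 in βCat-GOF mice and 0.67 without the 2 mice farthest from the median of *Pdhb*. By Spearman's rho *Pdk1* and *Pdp1* also had an unadjusted p under 0.05 (rho = 0.67, permutation p = 0.014, adjusted 0.47). For *Pdk1* and *Pdp1* Pearson's r was 0.56 (permutation p = 0.11, adjusted 0.82), and 0.78 without 2 mice. The median r was 0.51 over the 6 pairs of subunits, between 0.12 and 0.73, and 0.05 over the 6 pairs of kinases, between -0.55 (*Pdk1* with *Pdk2*) and 0.44 (*Pdk3* with *Pdk4*). Each gene was also compared with the 10 marker scores. A score used only the markers above the filter, so the skeletal muscle score was *Mylpf* alone. None of these 100 pairs of a gene and a score passed, with 7 at an unadjusted p of Pearson's r under 0.05. The strongest of these were *Pdp1* with the endothelial score (r = -0.88, permutation p = 0.0021, adjusted 0.21; rho = -0.78, permutation p = 0.0035, adjusted 0.35; -0.70 without 2 mice) and *Pdhx* with the zG score (r = -0.84, permutation p = 0.0045, adjusted 0.23; rho = -0.75, permutation p = 0.017, adjusted 0.52; -0.62 without 2 mice). For *Pdhx* the r was -0.97 among βCat-GOF mice and -0.29 among Ctrl mice, and the difference between these was not tested.

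The genes whose genotype-centred level was most like that of a kinase gene, among 11430 genes with a base mean above 100, were *Fam92a*, *Plbd1* and *Hnmt* for *Pdk1*, with Pearson's r of 0.879, 0.858 and 0.822 over 12 mice. They were *BC017158*, *Sh2d3c* and *Sugp1* for *Pdk2* (0.967, 0.914 and 0.899) and *Paqr8*, *Tmem164* and *St5* for *Pdk3* (0.954, 0.943 and 0.943). For *Pdk4* they were *Lman2l*, *Foxo3* and *Thada* (0.886, 0.815 and 0.81). Each is the top of a ranking of all genes in the same libraries, and these values are a description.

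Around the complex, 10 lists held 107 genes outside the group, of which 105 were tested. Of these 3 were called higher in βCat-GOF adrenals and none lower in edgeR's quasi-likelihood test, or 2.86% against 2.35% of all genes tested, and the median log2 fold change was 0.07. DESeq2 called 7 of them higher and none lower. *Ldhb*, which encodes the heart-type lactate dehydrogenase subunit, had 762, 839 and 1170 normalized counts (lowest, median and highest) in Ctrl and 918, 1642 and 1976 in βCat-GOF mice. It rose by 0.81 on the log2 scale (SE 0.16, adjusted p = 0.015), and βCat-GOF mouse 3 was the one that lay within the Ctrl range. *Ucp2*, which encodes a mitochondrial inner membrane carrier, rose from 3711 ± 577 to 6341 ± 859 (SD), or by 0.76 on the log2 scale (SE 0.11, adjusted p = 0.0032), and its ranges (3117 to 4679 and 4983 to 7460) did not overlap. *Ppard*, for the nuclear receptor PPARδ, rose from 584 ± 58.2 to 835 ± 167, or by 0.50 on the log2 scale (SE 0.13, adjusted p = 0.048). The call of *Ppard* was close to the threshold and passed in only 2 of the 12 fits that left out 1 mouse, while *Ldhb* and *Ucp2* passed in all 12. *Ppard* did not pass in edgeR without the βCat-GOF mouse of another label number (adjusted p = 0.083). It did pass in DESeq2 (adjusted p = 0.011) and in edgeR without the 3 mice whose labels repeat a stem (adjusted p = 0.014).

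Of 11 genes for the transport and other fates of pyruvate, edgeR called *Ldhb* and 6 had an unadjusted p under 0.05. *Me3*, a mitochondrial malic enzyme, had the largest log2 fold change of this list, 1.21 (standard error 0.38), with an adjusted p of 0.097 in edgeR's test. DESeq2 called *Me3* higher as well (1.23, adjusted p = 0.016), as did edgeR without βCat-GOF mouse 1 (1.38, adjusted p = 0.041). DESeq2 called no gene of the lists in the rest of this paragraph. Among the 4 other genes of the complex and its regulators edgeR called none and 1 had an unadjusted p under 0.05 (*Sirt3*). *Dld*, for the E3 subunit, had a log2 fold change of 0.06 (adjusted p = 0.78 in edgeR's test), *Pdpr*, the regulator of the phosphatase, -0.17 (adjusted p = 0.46), and *Sirt3*, a mitochondrial deacetylase, -0.25 (adjusted p = 0.21). *Pdha2*, the testis form of E1α, was at 0 counts in every mouse. Nor did edgeR call any of the 15 tricarboxylic acid cycle genes, with the largest log2 fold changes at 0.22 (*Idh2*) and 0.21 (*Sdhc*) and 3 at an unadjusted p under 0.05, and none of the 8 genes of mitochondrial content (*Vdac1* 0.18, *Hspd1* 0.16, 0 at an unadjusted p under 0.05).

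The 9 genes of the related 2-oxoacid dehydrogenases held no call in either test, with 2 at an unadjusted p under 0.05 and the largest log2 fold changes at -0.38 (*Ppm1k*, the phosphatase of the branched-chain complex) and -0.34 (*Ogdhl*). Of the 8 genes of lipoate and thiamine supply neither test called any, and *Lipt2*, for a lipoyl transferase, had a log2 fold change of -0.17 (adjusted p = 0.69). Among 14 transcription factors and coactivators known to act on Pdk genes, *Ppard* was called and *Ppargc1a* had 0.46 (adjusted p = 0.25). *Epas1*, for hypoxia-inducible factor HIF-2α, fell by 0.35 (standard error 0.09, adjusted p = 0.047), and *Me2*, a malic enzyme, fell by 0.33 (adjusted p = 0.042), both below the fold cut-off and named after their values were seen. *Hif1a* had a log2 fold change of 0.13 (adjusted p = 0.52).

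The lists of genes that share known inducers with the kinases held no gene called lower by edgeR or DESeq2. EdgeR called 0.869% of all genes lower, and at that share lists this short would hold few such calls or none. Falls without a call included *Bnip3*, a hypoxia-responsive gene, at -0.43 (adjusted p = 0.16 in edgeR's test). *Plin2*, on the list of PPAR response, had -0.44 (adjusted p = 0.098). Both were named after their values were seen. Of 12 hypoxia-responsive genes, only some of them glycolytic, 9 had a positive log2 fold change and 3 a negative one. EdgeR called none, with 4 at an unadjusted p under 0.05, a median of 0.12, and *Hk2* at 0.84 (adjusted p = 0.13) and *Vegfa* at 0.59 (adjusted p = 0.15). *Hk2*, a hexokinase, was called higher by DESeq2 (0.85, adjusted p = 0.049) and by edgeR without βCat-GOF mouse 1 (1.00, adjusted p = 0.042). Of 18 genes of fatty acid oxidation and PPAR response 17 were tested, 12 with a positive and 5 with a negative log2 fold change. Of these edgeR called *Ucp2*, the median was 0.14 and *Cpt1a*, which controls fatty acid entry into mitochondria, had 0.74 (adjusted p = 0.081). DESeq2 called *Cpt1a* higher (0.76, adjusted p = 0.018), as did edgeR without βCat-GOF mouse 1 (0.91, adjusted p = 0.0053) and without the 3 mice whose labels repeat a stem (0.80, adjusted p = 0.019). The 8 glucocorticoid-responsive genes all had a positive log2 fold change, with a median of 0.38, but edgeR called none and 2 had an unadjusted p under 0.05. DESeq2 called 1, *Fkbp5* (0.50, adjusted p = 0.038), named after its value was seen, which had 0.49 (adjusted p = 0.096) in edgeR's test. The log2 fold changes of *Per1*, 0.64 (adjusted p = 0.35), and *Cdkn1a*, 0.56 (adjusted p = 0.29), each rested on 1 mouse. That of *Per1* was 0.18 without βCat-GOF mouse 2, and that of *Cdkn1a* was 0.15 without βCat-GOF mouse 5.

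**Figure D4:**
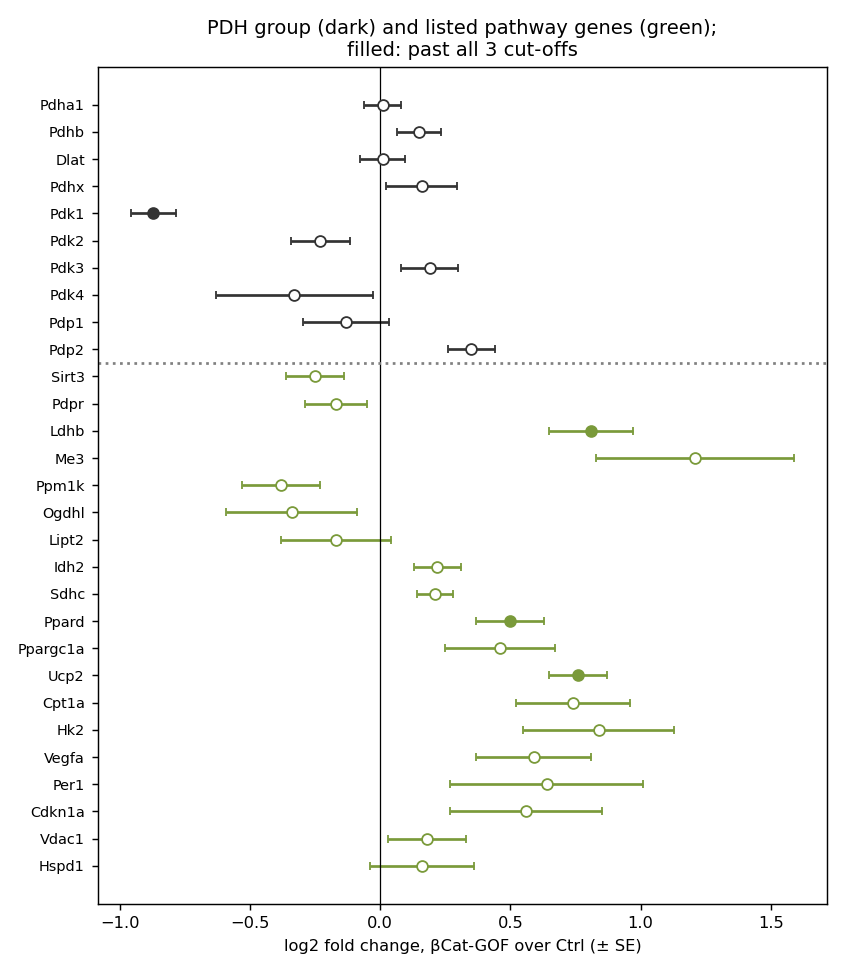
Log2 fold change of βCat-GOF over Ctrl (x axis, with standard error) for the 10 genes of the group (dark) and the named genes of the pathway lists (green), with filled points past all 3 cut-offs. *Pdk1* at -0.87 is the filled point below 0, and *Ldhb* at 0.81, *Ucp2* at 0.76 and *Ppard* at 0.50 are the filled points above 0.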

How the data were processed

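RNA-seq of whole adrenals from 6 Ctrl and 6 βCat-GOF mice was analysed. The authors prepared libraries with a TruSeq mRNA kit, trimmed adapters with cutadapt, aligned to mm10 with STAR, took unique alignments into per-gene counts with featureCounts 1.4.4 (the version in the submitters' processing notes), and deposited raw counts. A second deposited table, of normalized signal (each library scaled by its own factor), gave the gene symbols and nothing else here. The annotation release is not given in the sources used here, and positions and exon lengths came from GENCODE M21 on GRCm38, the assembly of mm10.

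Counts were tested with edgeR 4.0.16 (TMM, filterByExpr, quasi-likelihood, two-sided, R 4.3.3), Benjamini-Hochberg adjustment and the study's cut-offs of 1.4, 0.05 and 100. Alternatives were DESeq2 1.42.0 (the study's tool), its size factors in edgeR, no filter, and fits without single mice or the mice with doubtful labels. Standard errors are the log2 fold change divided by the root of F. Log2 CPM used a prior count of 2, correlations 100000 permutations, and exact tests all sign flips. Scripts were tested on simulated data. A search of transcripts with blastn 2.17.0 found no copy of a group gene at 95% identity over 10% of its length other than *Map3k15*, which overlaps *Pdha1*. With between 13484675 and 25625494 counts per library, intervals cover counting error and the spread between libraries only, which may be partly technical.

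The 10 genes and the lists were chosen with earlier results of these data known. Named genes were the group, every called gene of a pathway list or its largest changes up to 2, and the 3 genes most like each kinase. One gene that this rule names is not reported here. Protein sequences were not analysed here.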

Additional observations from a re-analysis of the deposited data

Results flagged for a closer look

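Values that stood apart from the other 5 mice of their genotype were looked for in the 10 genes and the 20 named pathway genes, in 60 groups of 6, with a gap above 0.625 of the group's range taken as apart. Chance alone gives about 1 in 20 such groups, and 6 were found. Ctrl mouse 4 was highest for *Pdha1*, at 5204 normalized counts against 4885 for the next, and for *Pdp1*, at 1980 against 1414. βCat-GOF mouse 2 was highest for *Pdp2*, at 752 against 602, and for *Per1*, at 4539 against 2192. βCat-GOF mouse 1 was lowest for *Ppard*, at 523 against 838, which lay within the Ctrl range of 522 to 684. βCat-GOF mouse 5 was highest for *Cdkn1a*, at 880 against 367. No value of *Pdk1* stood apart in this way. The causes were not tested.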

How the results depend on the processing

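The log2 fold change of *Pdk1* lay between -0.92 and -0.84 under the alternatives to the genotype comparison, given as a description because the group was chosen with this contrast known. *Pdha1* and *Dlat* took either sign (-0.03 to 0.04 and -0.03 to 0.05 with 1 mouse left out). With 1 mouse left out in turn, 146 to 340 genes were called higher and 61 to 223 lower over all genes, and 2 to 7 of the pathway genes. Without Ctrl mouse 6 these were 146 and 61, without βCat-GOF mouse 1 340 and 223, and without βCat-GOF mouse 6 167 and 63. *Me3*, *Cpt1a* and *Hk2* were called by DESeq2 and without βCat-GOF mouse 1, and not by edgeR over all mice. DESeq2 called 363 higher, 283 lower and 7 pathway genes, against 222, 130 and 3. Without the 3 mice whose labels repeat a stem 228 genes were called lower and 5 pathway genes, and without the βCat-GOF mouse of another label number (mouse 5) 80 were called lower. The cause was not tested. Pairs of genes that co-varied within genotype numbered 0 in every alternative, with 1 pair under an unadjusted p of 0.05 for Pearson's r in all mice. In Ctrl, 6 to 7 pairs of neighbours had 1 order in every mouse. With 5 mice the exact permutation test cannot go below p = 0.0625, so it was not repeated there. No paired analysis was possible because the labels give the groups no shared replicate numbers.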
